A study of Homo sapiens with 24 samples.

Results

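The comparison described here is that of LNCaP cells after 24 h with dihydrotestosterone (DHT) against LNCaP cells after 4 h with DHT, with no vehicle term in the contrast. Its members were chosen by their labelled treatment and time, and they are 4 of the 24 samples of the series, 2 libraries at each time. LNCaP is an established androgen-responsive prostate cancer line grown from a lymph node metastasis. All cells were kept for 3 days in phenol red-free medium with charcoal-stripped serum, which is poor in steroids, before vehicle, 10 nM DHT or 10 μM enzalutamide was added. Enzalutamide, labelled MDV, is an antiandrogen drug, and its libraries, 2 at 4 h and 2 at 24 h, are the other timed samples of this experiment. The 12 siRNA samples of the series were not used here. The labels give no time for the vehicle cells, so the length of DHT exposure and the time in culture cannot be told apart in the DHT libraries alone. The study describes the libraries of 1 condition as biological replicates, and neither it nor the labels say whether they came from separate cultures, so p-values measure the spread between these libraries. The labels list 4 vehicle samples, whereas the vehicle columns carry replicate numbers 1 and 2 alone, so vehicle is given as 2 libraries.

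DHT is the most potent natural androgen. Androgen response elements (inverted repeats of the AGAACA half-site) lie mostly in distant enhancers, and androgen changes transcription of the nearby genes within hours. In prostate cells the genes androgen raises directly include kallikreins, TMPRSS2 and FKBP5, while later changes also pass through the products of early targets, through lipid synthesis and through the cell cycle.

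The DHT libraries held 53145781 and 53779493 estimated counts at 4 h and 56454994 and 40281721 at 24 h, within the 38894876 to 59985287 of all 10 libraries. The SD over genes of the log2 ratio between replicate libraries was 0.138 at 4 h and 0.152 at 24 h. All 9 markers of luminal prostate epithelium were above 1 CPM (estimated counts scaled for library size) in each of the 4 libraries, and their summed level was 4098 to 4124 CPM at 4 h and 5688 to 5786 CPM at 24 h, or 3467 to 3516 and 3592 to 3647 CPM without KLK3. Summed basal markers were at 5.19 to 5.43 CPM at 4 h and 2.79 to 3.95 CPM at 24 h, fibroblast and smooth muscle markers at 26.8 to 27.4 and 17.3 to 20.0 CPM, endothelial markers at 17.9 to 18.4 and 20.7 to 21.4 CPM, and leukocyte markers at 1.23 to 1.62 and 2.80 to 2.91 CPM. Most of each of the last 4 sums came from 1 gene (ITGB4, COL1A1, VWF and CD68), while COL1A2 and CD3E were at 0 in all 4 libraries and KRT5, PECAM1 and PTPRC were below 0.1 CPM. The column names of the tables carry prefixes (ZC1, ZC2, ZC3) that go with time: both 4 h DHT libraries carry ZC1, whereas those at 24 h carry ZC2 and ZC3. Vehicle runs under each prefix allow a fit with the prefix as a term. In it 5130 (66.2%) of the 7746 genes that passed still did so in the same direction. So did 391 (60.4%) of the 647 called over 2-fold. Only vehicle columns link ZC1 to the other prefixes, and 3 of them are taken here as runs of 1 library. That fit counted those runs as separate samples, and it cannot adjust for differences that repeat runs do not carry.

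Between 4 h and 24 h of DHT, 4098 genes rose and 3648 fell among 15555 tested, at an adjusted p below 0.05 (edgeR's quasi-likelihood test with Benjamini-Hochberg adjustment), which is 26.3% and 23.5% of the genes tested, or 49.8% in all. Most of these changes were small, since the median fold of the genes that passed was 1.27. A change of over 2-fold was seen for 237 genes that rose (1.52% of those tested) and 410 that fell (2.64%), 4.16% in all. The median log2 fold change over all genes tested was -0.003.

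**Figure D1:**
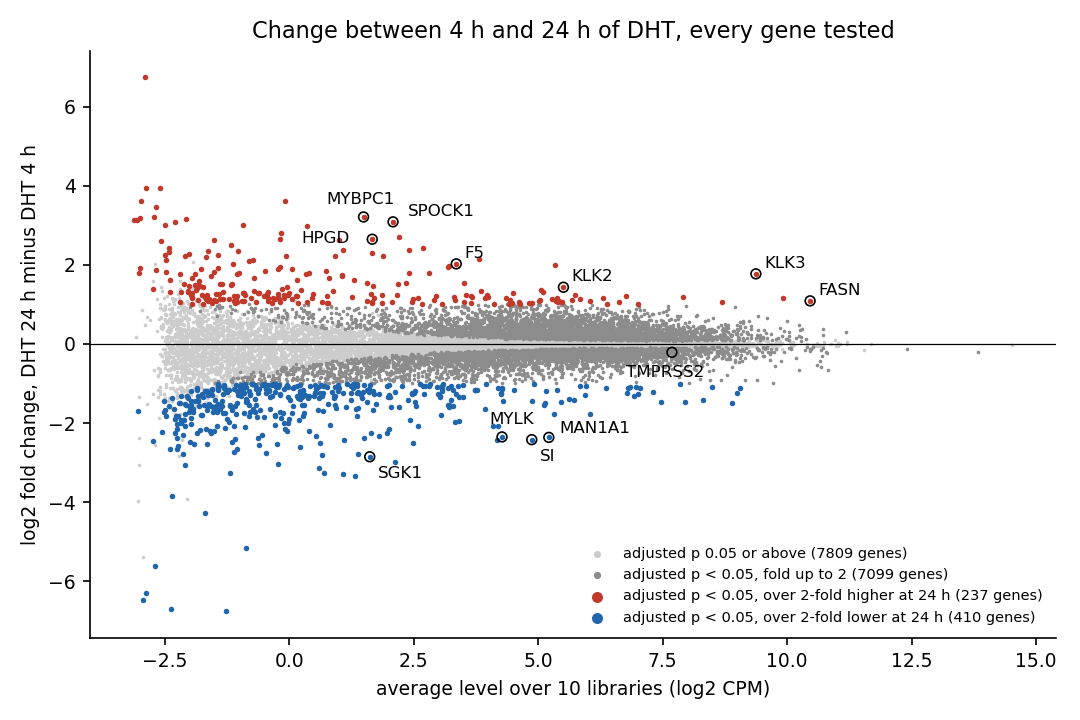
Log2 fold change between DHT 24 h and DHT 4 h (y axis) against the average log2 CPM over the 10 libraries (x axis), 1 point per gene. The 237 genes over 2-fold higher are red, the 410 over 2-fold lower are blue, and circled genes are named in the text.

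The 12 largest rises among genes with an average level of at least 1 log2 CPM were those of MYBPC1, SPOCK1, ST6GALNAC1, HPGD, LINC01297, CHRNA2, ZNF812P, GAGE10, TENM1, ADAM7, TM4SF1 and F5, from 9.26-fold to 4.07-fold. MYBPC1, which encodes a muscle-type myosin-binding protein C, was at 1.23 and 1.13 CPM at 4 h and at 11.2 and 10.6 CPM at 24 h, against 0.892 and 0.939 CPM in vehicle cells. Its log2 fold change was 3.21 ± 0.15 (SE, adjusted p = 4.19e-09). SPOCK1, a secreted proteoglycan, moved in the same way, from 1.75 and 1.91 CPM to 16.4 and 14.8 CPM (3.09 ± 0.11, adjusted p = 4.58e-10), with vehicle cells at 1.42 and 1.40 CPM. For both genes the 24 h libraries lay far above the rest, and the adjusted p of 4 h against vehicle was 0.35 for MYBPC1 and 0.16 for SPOCK1. In both, though, the 4 h libraries were already above those of vehicle, by 0.37 and 0.38 on the log2 scale. Their unadjusted p there was 0.085 and 0.020 (edgeR).

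Other genes of this group had already risen further at 4 h. ST6GALNAC1, a sialyltransferase that makes the sialyl-Tn antigen, was at 0.776 and 0.736 CPM in vehicle cells, 2.83 and 2.92 CPM at 4 h, and 18.7 and 18.9 CPM at 24 h (2.71 ± 0.11 from 4 h to 24 h, adjusted p = 8.91e-10). F5, coagulation factor V, followed the same course with 1.88 and 1.40, then 8.97 and 9.53, then 37.1 and 38.3 CPM. HPGD, the enzyme that inactivates prostaglandins, was at 2.13 and 1.84 CPM at 4 h and 12.7 and 12.2 CPM at 24 h. In these 3 genes the vehicle, 4 h and 24 h libraries formed steps with no overlap. The log2 fold change of HPGD was 2.65, and 1.92 with the prefix term. GAGE10 belongs to a family of near-identical copies on the X chromosome, so its counts, and those of the other GAGE genes, are uncertain.

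The 12 largest falls were those of GAGE5, GAGE7, GAGE2A, SGK1, SLC6A20, MCTP1, VWA2, KCNU1, SI, MATN2, MAN1A1 and MYLK. SGK1, a serum- and glucocorticoid-regulated kinase, had the largest fall of these outside the GAGE family. It was at 0.892 and 1.14 CPM in vehicle cells, 10.8 and 9.81 CPM at 4 h, and 1.59 and 1.22 CPM at 24 h, a log2 fold change between the times of -2.85 ± 0.15 (adjusted p = 1.06e-08). The 2 libraries at 24 h thus sat just above those of vehicle, with a log2 fold change from vehicle of 0.52 (adjusted p = 0.045) against 3.37 at 4 h.

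Several of the other large falls started from a 4 h level near that of vehicle or slightly below it. SI, the intestinal sucrase-isomaltase, was at 32.1 and 32.7 CPM in vehicle cells, 32.2 and 31.4 CPM at 4 h, and 6.11 and 5.74 CPM at 24 h (-2.42 ± 0.066, adjusted p = 4.84e-11). MAN1A1, a Golgi mannosidase that trims N-glycans, went from 35.5 and 35.4 CPM to 6.79 and 7.03 CPM, with vehicle cells at 42.8 and 39.5 CPM. MYLK, myosin light chain kinase, went from 22.4 and 21.1 CPM to 4.08 and 4.49 CPM, with vehicle cells at 23.9 and 24.9 CPM. VWA2, a secreted protein with von Willebrand factor A domains, went from 15.9 and 17.1 CPM to 3.13 and 2.93 CPM, with vehicle cells at 19.2 and 19.75 CPM. In each of these genes the 24 h libraries were below every vehicle and 4 h library, and the adjusted p of 4 h against vehicle was 0.053 to 0.84 for the 4. In MAN1A1, MYLK and VWA2, though, both 4 h libraries were already below both of vehicle, by -0.22, -0.17 and -0.24 on the log2 scale. Their unadjusted p there was 0.0043, 0.028 and 0.0036 (edgeR). SLC6A20, an amino acid transporter, was at 3.80 and 3.25 CPM in vehicle cells, 2.41 and 2.57 CPM at 4 h (-0.51 against vehicle, adjusted p = 0.13) and 0.494 and 0.178 CPM at 24 h. Its log2 fold change moved from -2.79 to -3.79 without DHT 24 h replicate 1.

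**Figure D2:**
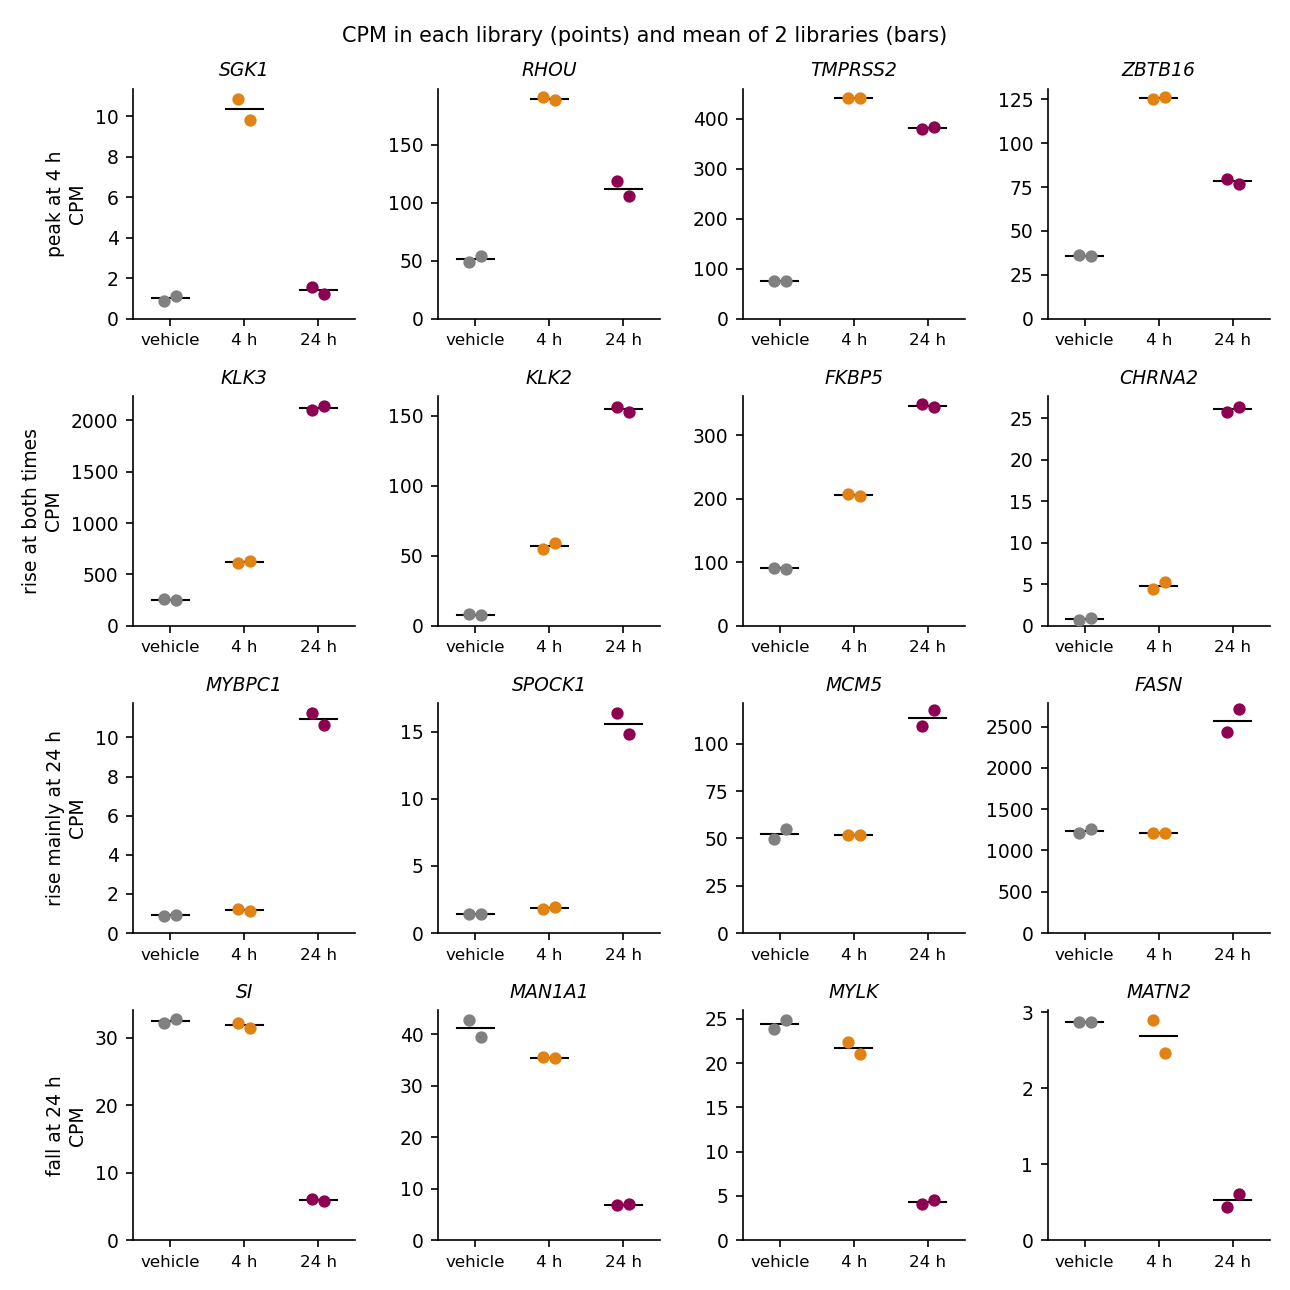
CPM (y axis, from 0) of 16 genes in the 2 vehicle, 2 DHT 4 h and 2 DHT 24 h libraries (points), with the mean of each pair as a bar. Rows show genes highest at 4 h, genes that rise at both times, genes that rise mainly at 24 h and genes that fall at 24 h; SGK1 returns from 10.8 and 9.81 CPM to 1.59 and 1.22 CPM, while KLK3 climbs from 609 and 631 CPM to 2095 and 2139 CPM.

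Known androgen-induced genes split by time. Of the 29 tested, 16 rose and 10 fell between 4 h and 24 h (55.2% and 34.5%, against 26.3% and 23.5% of all genes). By over 2-fold, 9 rose and 1 fell (1.52% and 2.64% of all genes did so), and the median log2 fold change was 0.41. These genes were listed for being raised by androgen, and 27 of 29 passed as above vehicle at 4 h and 27 at 24 h. The split therefore lies mostly in how much higher 1 time was than the other. For all genes the share above vehicle was not counted.

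KLK3, the gene of prostate-specific antigen, was at 260 and 254 CPM in vehicle cells, 609 and 631 CPM at 4 h, and 2095 and 2139 CPM at 24 h. Its log2 fold change between the times was 1.77 ± 0.051 (adjusted p = 7.09e-11), and the steps did not overlap. KLK2, a neighbouring kallikrein protease gene, went from 55.2 and 59.3 CPM to 157 and 153 CPM (1.43 ± 0.075, adjusted p = 1.03e-08). FKBP5, an immunophilin that acts as a co-chaperone of steroid receptors, went from 207 and 204 CPM to 348 and 344 CPM (0.75 ± 0.035, adjusted p = 4.50e-09). FKBP5 thus rose 1.68-fold. Besides KLK3 and KLK2, those over 2-fold higher at 24 h were CHRNA2, HPGD, TRPM8, STEAP4, ORM1, ABCC4 and HERC3. TRPM8, a cold-sensing cation channel, was at 5.43 and 5.04 CPM at 4 h and 18.2 and 17.9 CPM at 24 h.

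The genes that fell include well-known early targets, and most stayed far above vehicle. RHOU, a small GTPase, was at 48.9 and 53.97 CPM in vehicle cells, 191 and 188 CPM at 4 h, and 118 and 105 CPM at 24 h (-0.76 ± 0.054, adjusted p = 1.47e-07). TMPRSS2, a membrane serine protease, was at 75.6 and 74.7, then 441 and 441, then 379 and 383 CPM (-0.21 ± 0.036, adjusted p = 0.000308). For both genes the 4 h libraries were the highest and the 24 h libraries lay between them and vehicle. MAF (-0.85), a leucine zipper factor, and ZBTB16 (-0.68), a zinc finger repressor, also fell from a 4 h peak. ACPP, the gene of prostatic acid phosphatase, fell (-0.56) without a 4 h rise, with 200 and 208 CPM in vehicle cells and 128 and 125 CPM at 24 h.

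**Figure D3:**
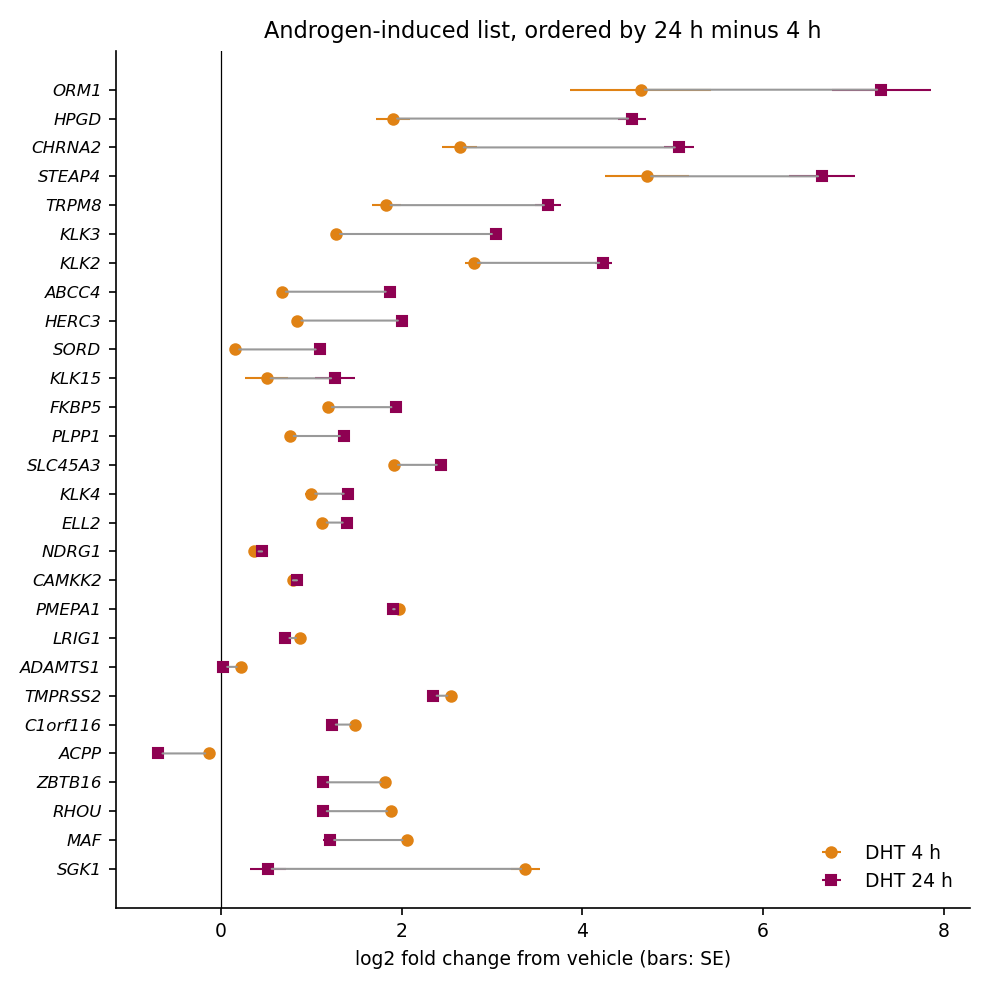
Log2 fold change from vehicle (x axis, bars are SE) of 28 of the 29 androgen-induced genes at DHT 4 h (orange circles) and DHT 24 h (purple squares), ordered by the difference between the times. KLK3 and KLK2 lie further right at 24 h, SGK1 and MAF further left; both times share the vehicle libraries.

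Promoter sequence was looked at for these genes because androgen response elements are defined by their letters. The 250 bases before the start were searched on both strands in RefSeq promoters (GRCh38.p14, 35116 promoters), and 20 of the 29 androgen-induced genes had an entry. The half-site AGAACA was in 7.69% of their promoters, 12.4% of all promoters and 8.51% of those of genes tested here, and the full inverted repeat was in none of theirs and 1 of all. KLK3 was among the genes with a half-site, which started 170 bases before the gene's start. It is shown here in capitals, since KLK3 is the most studied gene of the list:
KLK3, chr19:50854725-50854784, plus strand: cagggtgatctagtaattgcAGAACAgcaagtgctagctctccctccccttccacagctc

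Androgen-repressed genes mostly fell late. Of the 15 tested, 10 fell and 3 rose (66.7% and 20%, against 23.5% and 26.3% of all genes), with a median of -0.66. By over 2-fold, 5 fell and 1 rose (2.64% and 1.52% of all genes did so). NOV, a secreted matricellular protein, was at 4.11 and 4.44 CPM in vehicle cells, 3.96 and 4.01 CPM at 4 h, and 0.695 and 0.917 CPM at 24 h (-2.33 ± 0.16, adjusted p = 8.31e-08). DDC, the decarboxylase that makes dopamine and serotonin, went from 358 and 364 CPM to 136 and 134 CPM (-1.42 ± 0.031, adjusted p = 1.10e-11) after a vehicle level of 387 and 380 CPM. OPRK1, an opioid receptor gene, had fallen in part at 4 h, with 33.5 and 37.3 CPM in vehicle cells, 20.7 and 21.0 CPM at 4 h, and 7.17 and 8.21 CPM at 24 h. Against the list's name, UGT2B28 rose from 6.77 and 6.41 CPM to 25.9 and 24.6 CPM (1.94 ± 0.074, adjusted p = 7.12e-10), and UGT2B11 and HES6 also rose. The UGT2B genes, which glucuronidate androgens, share long stretches of sequence, so their counts could be split between copies.

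Of 17 steroid receptor and cofactor genes tested, 2 rose (11.8%, against 26.3% of all genes) and 6 fell (35.3%, against 23.5%), with log2 fold changes from -1.36 to 0.50. GRHL2, an epithelial transcription factor, peaked at 4 h, with 98.5 and 104 CPM in vehicle cells, 194 and 193 CPM at 4 h, and 107 and 115 CPM at 24 h (-0.80 ± 0.043, adjusted p = 1.19e-08). NR3C2, the mineralocorticoid receptor gene, fell by 0.61 on the log2 scale, and NCOA1, a coactivator, by 0.36, while FKBP4, a co-chaperone of steroid receptors, rose by 0.36. GATA2, a zinc finger transcription factor, was at 184 and 186 CPM at 4 h and 178 and 187 CPM at 24 h (-0.02, adjusted p = 0.76). NR3C1, the glucocorticoid receptor gene, was below 1 CPM in all 4 libraries (-0.60, adjusted p = 0.089, and -1.03 with an adjusted p of 0.042 without DHT 24 h replicate 1). Among 12 genes of androgen and steroid metabolism, 4 rose (HSD17B4, STS, SULT2B1 and HSD17B10) and 3 fell (SRD5A1, AKR1C2 and AKR1C3), the last 2 at under 1 CPM and with close paralogs. These shares, 33.3% and 25%, are near those of all genes tested. The fall of SRD5A1 (-0.21) did not pass without DHT 24 h replicate 2, without either DHT 4 h library or with the prefix term (adjusted p 0.0741 to 0.209), nor did the rise of SULT2B1 with the prefix term (adjusted p = 0.079).

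Genes of DNA replication and the G1/S transition all rose late. All 40 of those tested passed (against 26.3% of all genes), 10 of them by over 2-fold (against 1.52%), and the median log2 fold change was 0.87. At 4 h none of the 40 passed against vehicle in edgeR (5 were above it and 1 below at an unadjusted p below 0.05), and their median there was -0.01. At 24 h all 40 passed as above vehicle, with a median of 0.87. The share of all genes that passed against vehicle was not counted, so these 2 counts have no share beside them. E2F8, an atypical E2F factor, was at 12.1 and 11.1 CPM at 4 h and 27.7 and 26.4 CPM at 24 h (1.23 ± 0.064, adjusted p = 9.90e-09). E2F2, an activator of S-phase genes, went from 11.1 and 11.3 CPM to 25.2 and 26.02 CPM, CLSPN, a checkpoint adaptor at the replication fork, from 38.0 and 38.5 CPM to 87.4 and 83.5 CPM, and MCM5, a subunit of the replicative helicase, from 52.0 and 51.9 CPM to 109 and 118 CPM. In all 40 genes both 24 h libraries were above both 4 h libraries, as was the case for 38.6% of all genes tested, while 38.1% of all had both below.

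Mitotic genes rose too, by less. All 38 passed (26.3% of all genes rose) and none exceeded 2-fold, with a median log2 fold change of 0.53 and a range from 0.16 to 0.95. AURKB, the kinase of the chromosomal passenger complex, went from 18.2 and 18.3 CPM to 35.6 and 35.1 CPM (0.95 ± 0.067, adjusted p = 1.24e-07). CDK1, the kinase that drives entry into mitosis, went from 239 and 232 CPM to 381 and 346 CPM (0.63 ± 0.054, adjusted p = 7.83e-07), and BIRC5, the passenger protein survivin, from 86.9 and 87.5 CPM to 129 and 126 CPM (0.55 ± 0.036, adjusted p = 7.70e-08). ANLN, a scaffold of the cleavage furrow, NCAPH, a condensin subunit, and CDCA8, another passenger protein, rose by 0.82, 0.81 and 0.73 on the log2 scale. In RNA from a whole culture, more cycling cells and more of these transcripts per cycling cell cannot be told apart.

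Among 12 CDK inhibitor, D-type cyclin and pocket protein genes, 5 rose and 5 fell (41.7% each, against 26.3% and 23.5% of all genes). CDKN2B, the gene of the inhibitor p15, was at 2.13 and 2.53 CPM at 4 h and 1.10 and 1.43 CPM at 24 h (-0.90 ± 0.17, adjusted p = 0.000741), although its adjusted p was 0.145 with the prefix term. RBL1 (p107, a pocket protein that is itself induced in late G1) rose from 31.8 and 30.9 CPM to 49.2 and 47.9 CPM, and CDKN2D and CCND3 rose by 0.49 and 0.43. The list therefore had no common direction.

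The promoters of the cell cycle genes are shown because motifs known from such genes stand next to their starts. The CHR element TTTGAA, on either strand, was in 54.1% of the mitosis promoters, 13.3% of all promoters and 9.23% of those of genes tested here. An E2F motif (TTCCCGC or TTGGCGC, either strand) was in 51.1% of the G1/S promoters and 7.81% of all promoters and 11.3% of those of genes tested. CCAAT boxes were in 78.4% of the mitosis and 64.4% of the G1/S promoters, 32.01% of all promoters and 33.1% of those of genes tested. These shares describe the letters and are not a test, and 32 of 38 mitosis and 35 of 40 G1/S genes had an entry. The last 60 bases before the start are given for CDK1, ANLN and CDCA8 with the CHR element in capitals, and for E2F2, E2F1 and CDT1 with the E2F motif in capitals. E2F1 and CDT1, which rose by 1.08 and 1.11 on the log2 scale, were picked after their values and motifs were seen:
CDK1, chr10:60778418-60778477, plus strand: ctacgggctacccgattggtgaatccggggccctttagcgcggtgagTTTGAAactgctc
ANLN, chr7:36389802-36389861, plus strand: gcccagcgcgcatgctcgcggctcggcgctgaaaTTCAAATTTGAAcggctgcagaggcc
CDCA8, chr1:37692456-37692515, plus strand: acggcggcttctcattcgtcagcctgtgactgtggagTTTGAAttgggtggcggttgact
E2F2, chr1:23531234-23531293, minus strand: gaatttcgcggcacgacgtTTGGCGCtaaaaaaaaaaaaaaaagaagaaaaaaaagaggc
E2F1, chr20:33686386-33686445, minus strand: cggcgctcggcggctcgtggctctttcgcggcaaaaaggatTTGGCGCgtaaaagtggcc
CDT1, chr16:88803729-88803788, plus strand: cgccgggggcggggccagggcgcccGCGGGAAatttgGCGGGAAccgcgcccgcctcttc

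**Figure D4:**
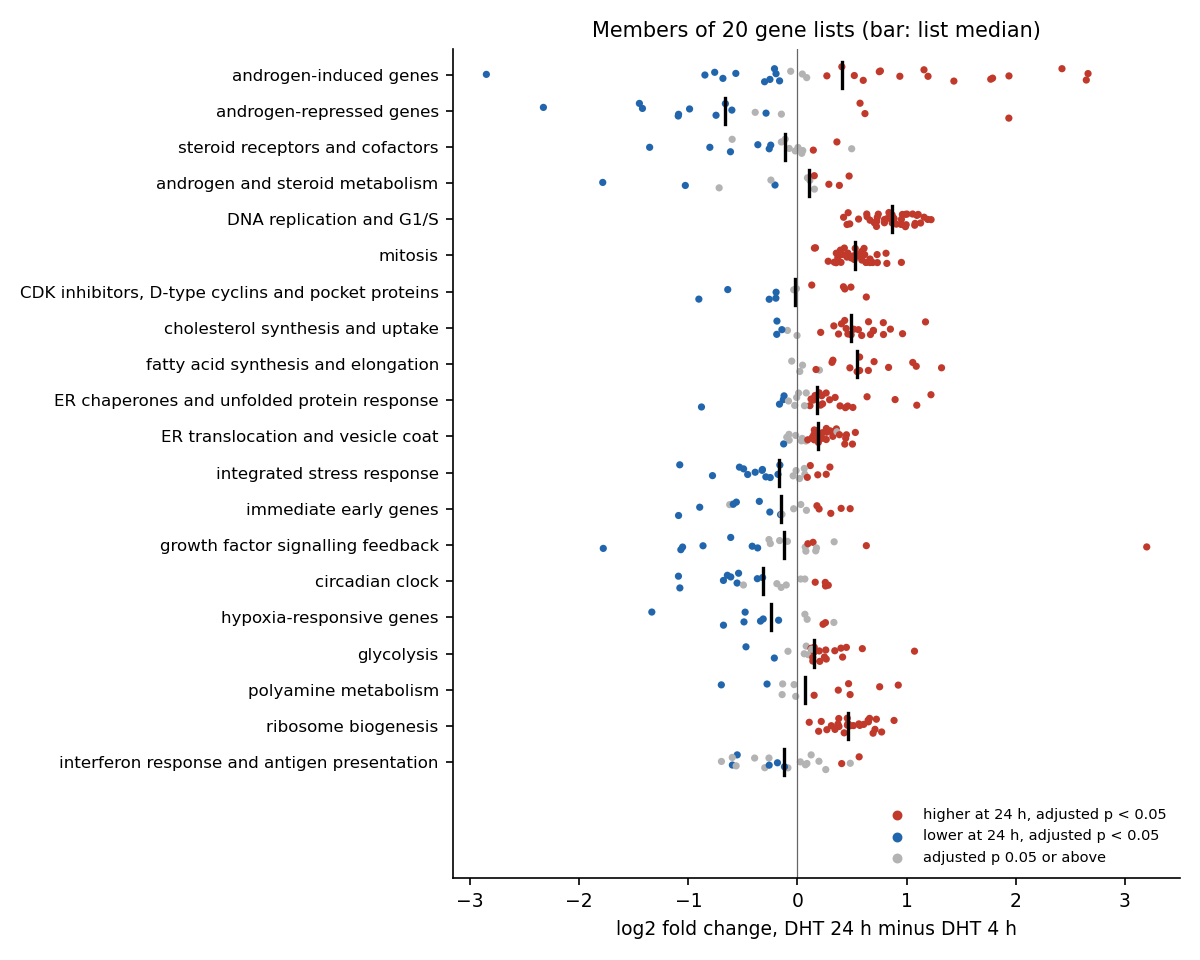
Log2 fold change between DHT 24 h and DHT 4 h (x axis) of every tested member of 20 gene lists, 1 point per gene, red or blue where it rose or fell at an adjusted p below 0.05 and grey otherwise, with the list median as a bar. Every member of the G1/S, mitosis and ribosome biogenesis lists is red, whereas the androgen-induced list runs from -2.85 to 2.66.

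Lipid synthesis rose in the same interval. Of 25 genes of cholesterol synthesis and uptake, 20 rose and 3 fell (80% and 12%, against 26.3% and 23.5% of all genes), with a median of 0.49. Of 17 genes of fatty acid synthesis and elongation, 13 rose (76.5%) and none fell (0 also at an unadjusted p below 0.05, and in DESeq2). The median of the latter list was 0.55. EBP, a sterol isomerase, was at 45.95 and 48.5 CPM in vehicle cells, 46.3 and 45.1 CPM at 4 h, and 83.2 and 95.5 CPM at 24 h (0.96 ± 0.060, adjusted p = 4.24e-08). INSIG1, the anchor of the SREBP pathway, rose by 0.79 on the log2 scale. In EBP both 24 h libraries lay above all those of vehicle and 4 h.

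FASN, fatty acid synthase, was at 1210 and 1262 CPM in vehicle cells, 1214 and 1206 CPM at 4 h, and 2440 and 2708 CPM at 24 h (1.09 ± 0.043, adjusted p = 8.91e-10). ELOVL7, an elongase of long-chain fatty acids, rose at both times, from 17.5 and 16.6 CPM in vehicle cells to 32.9 and 34.5 CPM and then to 86.8 and 81.6 CPM (1.32 ± 0.054, adjusted p = 1.22e-09). ELOVL5 rose by 1.06 and FADS1, a desaturase, by 0.84. Thus FASN had its whole rise between the times, and ELOVL7 had risen in part by 4 h.

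Ribosome biogenesis genes rose as a group, 27 of 27 tested (against 26.3% of all genes), with none over 2-fold and a median of 0.46. LYAR, a nucleolar protein, went from 28.4 and 25.9 CPM to 49.5 and 50.7 CPM (0.89 ± 0.061, adjusted p = 1.11e-07). NOP16, BOP1 and NOP56, which act in the assembly of the large subunit and in rRNA methylation, rose by 0.77, 0.72 and 0.71. At 4 h 2 of the 27 passed as below vehicle and 0 as above in edgeR (7 and 0 at an unadjusted p below 0.05). Their median there was -0.06, and no share of all genes was counted for that comparison.

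Secretory pathway genes rose in part. Of 30 genes of ER chaperones and the unfolded protein response, 20 rose and 4 fell (66.7% and 13.3%, median 0.18). Of 34 genes of ER translocation and the vesicle coat, 25 rose and 1 fell (73.5% and 2.9%, median 0.19). Among all genes 26.3% rose and 23.5% fell. PDIA5, a protein disulfide isomerase, went from 28.04 and 28.6 CPM to 61.1 and 59.7 CPM (1.09 ± 0.051, adjusted p = 4.49e-09), and CREB3L4, a membrane-bound factor abundant in prostate, rose by 0.90. ERN1, the stress sensor IRE1α, went the other way, with 35.05 and 34.8 CPM in vehicle cells, 67.5 and 67.8 CPM at 4 h, and 37.0 and 36.5 CPM at 24 h (-0.88 ± 0.063, adjusted p = 1.57e-07). SSR3, of the translocon-associated complex, SPCS3, of the signal peptidase, TMED9, a cargo receptor, and KDELR2, the retrieval receptor, rose by 0.53, 0.50, 0.45 and 0.44.

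Integrated stress response genes fell more often than they rose, 12 against 5 of 22 (54.5% and 22.7%, against 23.5% and 26.3% of all genes), with a median of -0.17. SLC7A5, a large neutral amino acid transporter, went from 19.0 and 18.6 CPM to 10.8 and 11.2 CPM (-0.78 ± 0.055, adjusted p = 1.30e-07), and ASNS, asparagine synthetase, from 254 and 248 CPM to 181 and 166 CPM (-0.53 ± 0.048, adjusted p = 1.22e-06). SLC7A11, the cystine transporter, was at 252 and 246 CPM at 4 h and 197 and 184 CPM at 24 h (-0.39 ± 0.096, adjusted p = 0.00438). DDIT3 and PPP1R15A, which act in the stress response downstream of eIF2α, fell by 0.49 and 0.46, the latter with an adjusted p of 0.17 without DHT 4 h replicate 1, 0.194 without DHT 24 h replicate 1 and 0.0538 in DESeq2. The 5 genes that rose (ATF3, TRIB3, STC2, MTHFD2 and SHMT2) did so by 0.30 or less.

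The enzalutamide libraries at the same times show which of these changes differed by ligand, and they share no library with the DHT contrast. The change over time differed between the ligands, at an adjusted p below 0.05, for 7150 genes (46.0%), 3661 higher (23.5%) and 3489 lower (22.4%) with DHT, and by over 2-fold for 622 (4.0%) and 651 (4.19%), 8.18% in all. With enzalutamide itself 1826 genes rose (11.7%) and 2003 fell (12.9%), 24.6% in all, and 50 (0.321%) and 230 (1.48%) did so by over 2-fold, 1.8% in all. Of the 237 genes over 2-fold higher with DHT, 57 fell and 7 rose with enzalutamide (24.1% and 2.95%), and the difference passed for 167 (70.5%). Of the 410 over 2-fold lower with DHT, 58 rose and 23 fell with enzalutamide (14.1% and 5.61%), and the difference passed for 326 (79.5%). The DHT change that chose both sets is a part of the difference. High shares for the difference were therefore built in and say nothing about the ligands. Across genes, which are not independent replicates, the time changes with the 2 ligands had a Pearson r of -0.21 over 15555 genes. Both contrasts go with column name prefixes (ZC2 at 4 h and ZC3 at 24 h for enzalutamide), and the part of those prefixes in the difference was not tested apart from the fit with the prefix as a term, where 2204 genes were lower with DHT.

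The cell cycle lists moved in opposite directions. With enzalutamide 39 of the 40 G1/S genes fell and all 38 mitotic genes fell, with medians of -1.05 and -1.22, against 12.9% of all genes. The difference between ligands passed as higher with DHT for every gene of both lists, against 23.5% of all genes. CDK1 was at 200 and 219 CPM at 4 h and 82.1 and 78.5 CPM at 24 h of enzalutamide, a difference in time change of 2.01 ± 0.079 (adjusted p = 3.6e-10). Cholesterol genes also split, with 20 of 25 falling with enzalutamide. Ribosome biogenesis genes did not fall together there, since 7 of 27 rose and 5 fell (median -0.005), against 11.7% and 12.9% of all genes. The difference passed as higher with DHT for 25 of 27, against 23.5% of all genes. The secretory lists rose in part with enzalutamide too. Of 34 ER translocation genes 11 rose and 0 fell, and of 30 ER chaperone genes 9 rose and 1 fell, against 11.7% and 12.9% of all genes. The difference passed as higher with DHT for 16 of the 34 and 14 of the 30, against 23.5% of all genes. It passed as lower for 4 and 7, against 22.4% of all genes, and the 7 of 30 are near that share. KLK3 fell with enzalutamide from 224 and 194 CPM to 108 and 111 CPM.

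**Figure D5:**
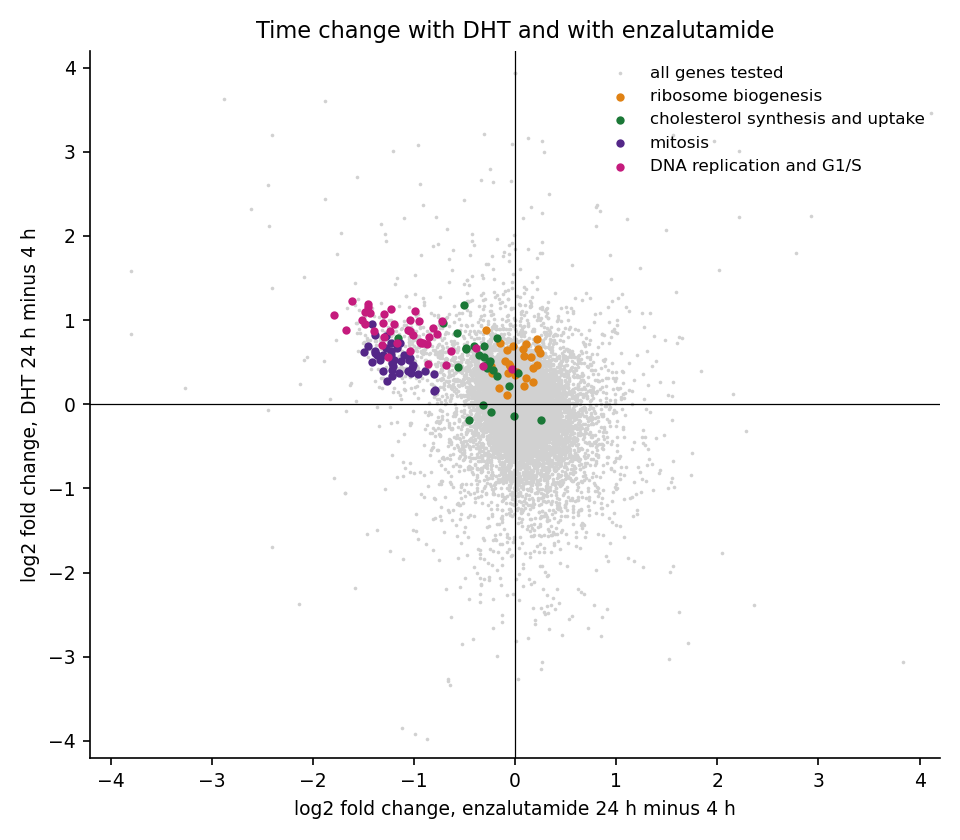
Log2 fold change between 24 h and 4 h with DHT (y axis) against that with enzalutamide (x axis), 1 point per gene tested, with 4 gene lists in colour. The G1/S and mitosis genes lie in the upper left, up with DHT and down with enzalutamide, while ribosome biogenesis genes lie above 0 on the y axis and around 0 on the x axis; 12 genes lie outside the axes.

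Among genes with an average level of at least 1 log2 CPM, those with the largest difference in the DHT direction were ST6GALNAC1, LINC01297, TRPM8, MYBPC1, TM4SF1 and ADAM7. ST6GALNAC1, described above, fell with enzalutamide from 0.752 and 0.567 CPM to 0.256 and 0.181 CPM, which gave a log2 difference of 4.27 ± 0.29 (adjusted p = 7.5e-08). TM4SF1, a membrane protein of the transmembrane 4 family, was at 9.75 and 10.2 CPM at 4 h and 45.2 and 42.8 CPM at 24 h of DHT, and at 5.93 and 6.24 CPM and then 2.56 and 2.30 CPM with enzalutamide. In the other direction stood COL16A1, MATN2, FAM131B, VWA2, GAGE2A and MCTP1. COL16A1, a collagen of the extracellular matrix, fell from 4.02 and 4.11 CPM to 1.04 and 1.10 CPM with DHT and rose from 6.28 and 3.81 CPM to 10.8 and 13.3 CPM with enzalutamide (difference -3.195 ± 0.30, adjusted p = 1.75e-06). MATN2, an extracellular matrix adaptor, fell from 2.90 and 2.47 CPM to 0.439 and 0.612 CPM with DHT and rose from 3.15 and 2.61 CPM to 4.63 and 5.24 CPM with enzalutamide. In both genes the 2 libraries at 24 h lay below those at 4 h with DHT and above them with enzalutamide. COL16A1 and MATN2 were not among the fibroblast markers, whose summed level was lower at 24 h than at 4 h of DHT, and the part of that sum in these values was not tested.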

How the data were processed

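RNA was enriched for poly(A), made into directional libraries and sequenced by the authors, who aligned reads with TopHat2 (version 2.0 per the labels, build hg19) and quantified genes in Partek at default settings. They deposited estimated counts per gene, not normalized and not all whole. Of the vehicle, DHT and enzalutamide columns 0 were left out, while the siRNA samples were not used. Counts were rounded, and 3 vehicle columns with the same replicate number were summed as runs of 1 library. The labels list 4 vehicle samples, and 2 of them match no column by number. Vehicle cells had values for 20260 genes and ligand-treated cells for 21962, with 19995 in common, and a gene absent from 1 table was set to 0 there. All 10 libraries, of 5 conditions, entered 1 edgeR 4.0.16 quasi-likelihood model (R 4.3.3) with TMM factors and the default filter, which left 15555 genes. CPM values use TMM library sizes. Genes "passed" at a Benjamini-Hochberg adjusted p below 0.05 and were called over 2-fold when they also changed that much. The effect of ligand on the time change was an interaction contrast. The code was tested on simulated data. Named genes are the 12 largest rises and falls (passed, average log2 CPM of at least 1, no overlap), the 6 largest differences from enzalutamide each way and up to 4 per list (passed, same level), and KLK3, TMPRSS2, FKBP5, SGK1, CDK1, BIRC5, NR3C1, SLC7A11 and GATA2. Some genes that this rule names are not reported here. Other list members are named after their values were seen. The comparison, the gene lists and this rule were chosen with earlier results of these data known. Alternatives were DESeq2 1.42.0, other scalings and filters, the replicate number as a block, and each library left out. The name prefix as a term, with the vehicle runs as separate samples, was added after seeing the column names. Figures were drawn with matplotlib 3.10.9.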

Additional observations from a re-analysis of the deposited data

Results flagged for a closer look

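The change between 4 h and 24 h differed between DHT and enzalutamide, by the test of that difference itself, for 3661 genes in the direction of a higher change with DHT and 3489 in the other. Among the named genes the log2 difference was 4.27 for ST6GALNAC1, 3.56 for LINC01297, 3.55 for TRPM8, 3.52 for MYBPC1, 3.46 for TM4SF1 and 3.31 for ADAM7. It was -3.195 for COL16A1, -3.16 for MATN2, -2.94 for FAM131B, -2.83 for VWA2, -2.82 for GAGE2A and -2.79 for MCTP1. The value of GAGE2A rests on near-identical gene copies, and with the column name prefix as a term it was -1.17 with an adjusted p of 0.29 (edgeR).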

How the results depend on the processing

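The counts of genes that rose or fell between 4 h and 24 h of DHT stayed within 1.5 times of the reported ones under every alternative run. With each library left out they were 3252 to 4397 and 2764 to 3973, and over 2-fold 212 to 255 and 364 to 433. Differences from the enzalutamide time change were 3162 to 3725 higher and 2805 to 3457 lower with a library left out, while DESeq2 gave 425 genes over 2-fold lower with DHT against 651, and the prefix term gave 2204 lower against 3489. The labels do not say whether libraries with the same replicate number are pairs. Over all genes, the deviations of same-numbered DHT libraries correlated at 0.081 (all pairs of conditions -0.137 to 0.105). That measure cannot exclude pairing that acts on part of the genes. With the replicate block 3963 genes rose and 3477 fell. Small counts of list members moved, and the cause was not tested. With the prefix term 1 member fell in steroid metabolism, 3 among CDK inhibitors, 1 in cholesterol synthesis and 1 in the interferon list, and 1 rose in each of the stress response, immediate early, growth factor and hypoxia lists and 0 in the clock list. With library size alone 1 receptor or cofactor rose, 4 translocation genes fell, and 3 stress response and 2 growth factor genes rose. DESeq2 gave 1 fall in steroid metabolism and 1 rise in the clock list. Translocation genes that fell were 3 with the DHT libraries alone, 3 with every vehicle column as a sample and 2 with no filter, and 1 neuroendocrine marker rose with the DHT libraries alone and with no filter. With a library left out, the members that rose ranged from 1 to 2 for receptors and cofactors, 2 to 5 for the stress response, 2 to 5 for growth factor feedback, 1 to 4 for the clock and 0 to 1 for neuroendocrine markers. Those that fell ranged from 0 to 4 in steroid metabolism, 1 to 3 in cholesterol synthesis, 1 to 3 in translocation and 3 to 5 in the interferon list. GATA2, which did not pass, had a log2 fold change of 0.015 with the prefix term and lay between -0.0611 and 0.0082 with a library left out. Of 2488 recomputed values of named genes, 2463 kept their direction and their side of the threshold. Most of these genes were named for passing in the same libraries that the alternatives reuse, so high agreement was built in. Over all genes that passed, 66.2% still did so in the same direction with the prefix term. NR3C1, at under 1 CPM in all DHT libraries, passed without DHT 24 h replicate 1 (adjusted p = 0.0423).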

Other observations

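Further lists chosen for this cell line gave the following counts between 4 h and 24 h of DHT, beside 26.3% of all genes that rose and 23.5% that fell. Of 19 circadian clock genes, 9 fell and 4 rose (47.4% and 21.1%, median -0.32). NR1D2, a repressor of the clock, went from 134 and 132 CPM to 63.4 and 61.6 CPM (-1.09 ± 0.044, adjusted p = 1.03e-09, edgeR), after 107 and 108 CPM in vehicle cells, and TEF, CRY2 and CIART fell by 0.68, 0.64 and 0.61 on the log2 scale. Of 20 genes of growth factor signalling feedback, 7 fell and 4 rose (35% and 20%). IRS2 and IRS1, adaptors of the insulin and IGF receptors, and IGFBP3, which binds IGF, were all highest at 4 h, IRS2 with 3.12 and 2.36 CPM in vehicle cells, 8.65 and 7.95 CPM at 4 h, and 3.81 and 4.23 CPM at 24 h, and they fell by 1.05, 0.87 and 1.07. DUSP4, a MAP kinase phosphatase, rose by 0.63 instead.

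Of 18 immediate early genes, 7 fell and 5 rose (38.9% and 27.8%, the latter near the share of all genes), with JUN at 127 and 128 CPM at 4 h and 83.9 and 89.2 CPM at 24 h, KLF6 and FOSL2 falling by 0.59 and 0.90, and KLF4 rising by 0.48 (adjusted p = 0.442 with the prefix term). Of 12 hypoxia-responsive genes, 7 fell and 2 rose (58.3% and 16.7%). TXNIP, an inhibitor of thioredoxin, went from 378 and 382 CPM to 241 and 234 CPM with DHT and from 257 and 249 CPM to 441 and 443 CPM with enzalutamide, and VEGFA went from 115 and 120 CPM to 84.4 and 82.9 CPM with DHT. Of 23 glycolysis genes, 16 rose and 2 fell (69.6% and 8.7%), HK2 from 36.6 and 35.5 CPM to 76.2 and 75.6 CPM (1.07 ± 0.044, adjusted p = 1.33e-09). Of 12 polyamine genes, 6 rose and 2 fell (50% and 16.7%), and the synthases SMS and SRM rose by 0.92 and 0.75. Of 21 interferon response and antigen presentation genes, 2 rose (OAS3 and B2M, 9.5%) and 5 fell (23.8%, near the share of all genes), of which MX1 and IFIT2 did not pass without DHT 24 h replicate 1 (adjusted p = 0.0798 and 0.0536) or with the prefix term (0.0534 and 0.109), nor MX1 without DHT 4 h replicate 2 (0.051). Of 9 neuroendocrine markers 2 could be tested, and NTS fell to under 1 CPM.

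A few genes were over 2-fold changed in the same direction with both ligands, and they are named after their values were seen. ARG1, CLDN1, SLC6A19 and SNAI2 fell with both, and ARHGAP19-SLIT1, a read-through transcript whose counts overlap those of its 2 parent genes, rose with both. SNAI2, a repressor of epithelial genes, was at 0.149 and 0.229 CPM in vehicle cells, 4.04 and 3.64 CPM at 4 h and 1.10 and 1.20 CPM at 24 h of DHT (-1.75 ± 0.20, adjusted p = 9.30e-06).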
